A study of Mus musculus with 6 samples.

Results

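Annexins are cytosolic proteins that bind membranes rich in acidic phospholipids when calcium rises, and the 10 annexin genes described here were followed in the pancreas of mice with and without the acinar transcription factor Ptf1a. The genes were chosen by symbol, as Anxa1, Anxa2, Anxa3, Anxa4, Anxa5, Anxa6, Anxa7, Anxa10, Anxa11 and Anxa13, and all 10 were found among the 10245 genes of the expression table. Anxa8 and Anxa9 were not analysed here. Each value is a normalized read count, that is, reads per gene placed by the authors on a scale common to the libraries.

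RNA of the entire pancreas was sequenced in 3 control animals of genotype Ptf1a(CreER/+) and in 3 Ptf1a cKO animals of genotype Ptf1a(CreER/fl), with 1 male and 2 females in each group. All 6 mice carried the tamoxifen-inducible Cre recombinase knocked into one copy of Ptf1a, so the controls already had a single working copy. The study's list of genotypes also gives these mice an EYFP reporter of recombination, which the sample labels do not mention. Every mouse was gavaged with tamoxifen at 0.25 mg/g on 3 consecutive days and was killed on day 14. Recombination was limited to cells that express Ptf1a, which in the adult pancreas are the acinar cells, and the share of them that recombined was not measured in these libraries. The control mice were 4 months old and the Ptf1a cKO mice 5 months old, so genotype and age cannot be told apart.

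Annexins share a conserved core that holds the calcium sites and differ in their N-terminal tails, through which they bind partners such as S100 proteins. In secretory epithelia they are known for roles in vesicle traffic, membrane repair and the link between membrane and cortical actin. Annexin A1 and annexin A5 also act outside cells, the first as a ligand that dampens neutrophil entry and the other as a binder of exposed phosphatidylserine.

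The labels were checked on Ptf1a itself. Its transcript was at 566, 601 and 652 normalized read counts in the control libraries and at 19.8, 70.1 and 10.2 in Ptf1a cKO libraries 1, 2 and 3. Ptf1a cKO replicate 2 thus kept the most Ptf1a, and its acinar marker transcripts were also the highest of that group. Per library, the median gene lay between 125.0 and 128.5 normalized read counts. The values do not carry the depth of each library, which the study's methods give as aligned reads, so no counting error is given and precision rests on the 3 mice of a group.

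Of the 10 annexins, Anxa4 and Anxa1 were higher in Ptf1a cKO pancreata and none was lower at an adjusted p-value under 0.05 (limma, two-sided, Benjamini-Hochberg over all 10245 genes). Anxa4, an annexin of polarized secretory epithelia, rose 2.59-fold, and Anxa1 rose 1.67-fold. Anxa10, an annexin typical of gastric mucosa, was at or near 0 in every control and at 6.34 to 93.6 normalized read counts in Ptf1a cKO, and it did not pass the threshold. Anxa2, Anxa5, Anxa11, Anxa6, Anxa7, Anxa3 and Anxa13 did not pass it either. The 2 calls among 10 stand beside 33.9% of all genes called in either direction, 17.1% higher and 16.8% lower. A count of 2 in 10 is close to this background. The median log2 fold change was 0.26 over the annexins and 0.036 over all genes, and that of the annexins was 0.26 with Anxa10 set to its lower bound and 0.17 without Anxa10.

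Anxa10 is left out of the next counts, because it could enter the table only through a high value in Ptf1a cKO. Among the other 9 annexins, all 3 Ptf1a cKO values lay above all 3 control values for 3, namely Anxa4, Anxa1 and Anxa5, beside 26.5% of all genes with that pattern. An exact two-sided permutation test of 3 against 3 cannot go below 0.10, which is its value for each of the 3. The opposite pattern, with all Ptf1a cKO values below the controls, was found for 0 of the 9 and for 24.3% of all genes. Without an adjustment for the number of genes, 4 of the 9 had p under 0.05 by limma, beside 45.3% of all genes, so this count is near its background.

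**Figure D1:**
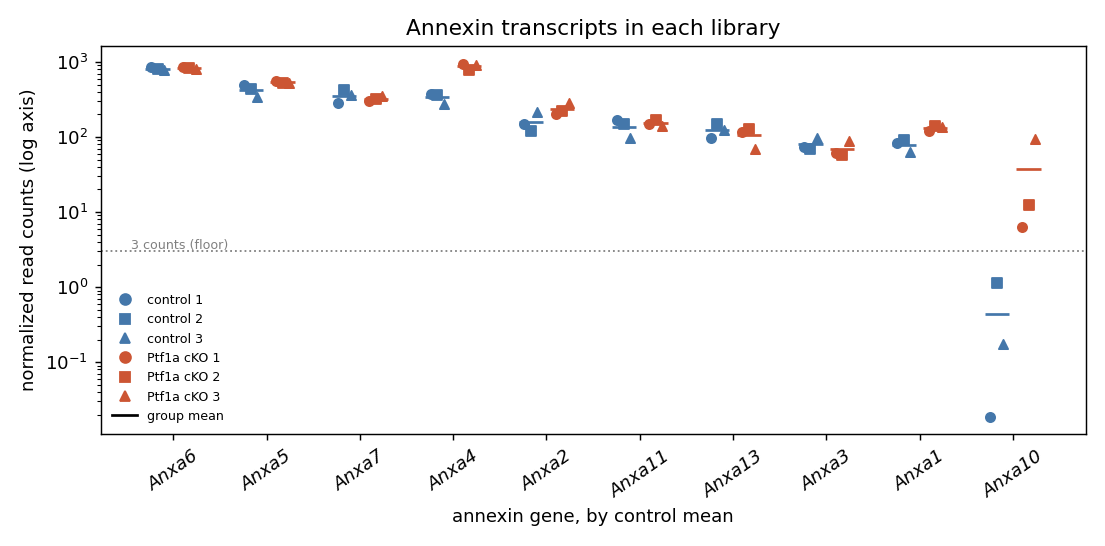
Normalized read counts (log axis) of the 10 annexins in the 3 control (blue) and 3 Ptf1a cKO (red) libraries, with bars at group means and genes ordered by their control mean. The Anxa4 values of Ptf1a cKO lie between 782 and 951, all above the control values of 273 to 378, whereas the Anxa6 values of both groups lie between 779 and 869.

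**Figure D2:**
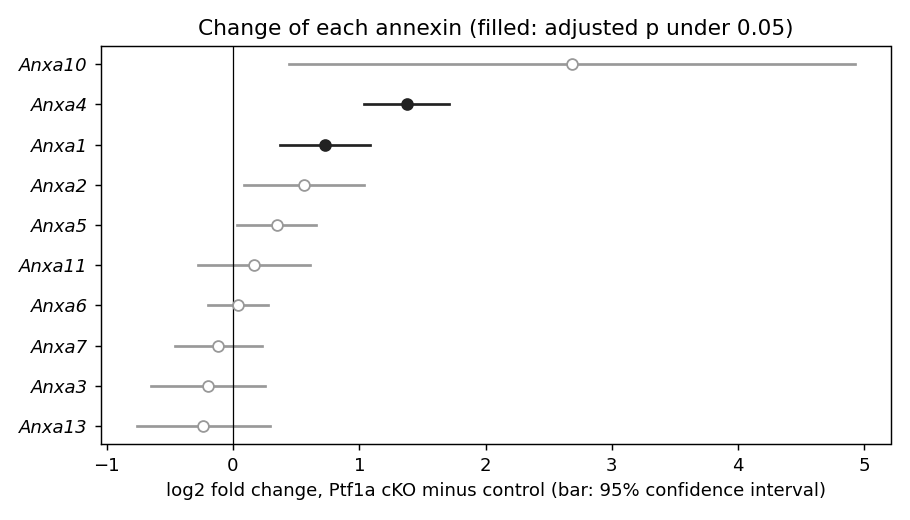
Log2 fold change of each annexin (Ptf1a cKO minus control, on the log2(value + pseudocount) scale) with its 95% confidence interval from limma. Anxa4 (1.37) and Anxa1 (0.73), drawn filled, passed the threshold, and the interval of Anxa10 runs from 0.45 to 4.92.

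For the annexins that rose and for Anxa10, the 250 bases before the RefSeq transcription start are shown (GRCm38.p6), because these windows differ in base composition and in core elements. They are named by gene and read 5′ to 3′ on the strand of the gene, which is the minus strand for all 3. Capitals mark matches to TATAAA, to the AP-1 motif TGANTCA, to the GC box GGGCGG, to the E-box CANNTG and to the RBPJ core TGGGAA, searched on both strands. The Anxa1 window is chr19:20390672-20390921, that of the upstream one of the 2 Anxa4 starts is chr6:86793585-86793834, and that of Anxa10 is chr8:62123194-62123443.
Anxa1: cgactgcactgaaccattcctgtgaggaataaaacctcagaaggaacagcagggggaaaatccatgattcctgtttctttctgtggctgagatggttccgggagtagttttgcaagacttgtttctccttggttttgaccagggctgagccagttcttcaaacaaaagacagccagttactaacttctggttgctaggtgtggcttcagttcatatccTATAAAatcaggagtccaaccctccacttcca
Anxa4: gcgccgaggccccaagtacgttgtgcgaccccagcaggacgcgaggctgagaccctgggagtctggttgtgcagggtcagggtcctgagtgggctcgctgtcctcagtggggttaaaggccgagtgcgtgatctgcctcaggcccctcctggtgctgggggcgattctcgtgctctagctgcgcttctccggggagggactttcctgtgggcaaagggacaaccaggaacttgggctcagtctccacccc
Anxa10: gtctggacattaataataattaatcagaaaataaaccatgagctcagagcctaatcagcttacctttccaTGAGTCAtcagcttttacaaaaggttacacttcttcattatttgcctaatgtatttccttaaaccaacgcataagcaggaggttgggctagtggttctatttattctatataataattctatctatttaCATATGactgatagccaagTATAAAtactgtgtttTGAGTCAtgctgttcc

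The Anxa4 window was 64.8% G and C with 13 CpG dinucleotides and held none of these motifs. The Anxa10 window was 33.6% G and C with 1 CpG. It held TATAAA at positions -32 to -27 from the start, AP-1 matches at -180 to -174 and at -16 to -10, and an E-box. The Anxa1 window, at 46.0% G and C, held TATAAA at the same positions and no other match. Over 32817 RefSeq promoter windows of the same length, TATAAA was found in 12.4%, the AP-1 motif in 6.75%, the GC box in 32.7%, the E-box in 66.2% and the RBPJ core in 21.6%. The E-box with the letters CAGCTG, a form that PTF1A can bind and a subset of CANNTG, was found in 13.01% of all windows. Among the 9 windows of the 7 annexins that matched an entry by symbol, it occurred only at the downstream start of Anxa4, at -161 to -156. The Anxa2 window also held TATAAA and an AP-1 match, at -17 to -12 and at -95 to -89. The RefSeq start of Anxa10 and the downstream starts of Anxa4 and Anxa7 were not matched to a GENCODE transcript. These are matches of letters and not known sites.

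Anxa4 binds apical and vesicle membranes in secretory and ductal epithelia and lowers calcium-activated chloride conductance. Its transcript was at 378, 365 and 273 normalized read counts in control libraries 1, 2 and 3 and at 951, 782 and 900 in the Ptf1a cKO libraries. All Ptf1a cKO libraries were high and the groups did not overlap. This was a log2 fold change of 1.37 with a standard error of 0.15 and an adjusted p of 3.07e-04 by limma. Among the log2 fold changes of all genes, that of Anxa4 lay at percentile 96.3. The difference was 1.04 between the 2 males and 1.54 between the female groups, and the limma test of a difference between the sexes, added after seeing the data, gave an adjusted p of 1.00 (unadjusted p = 0.150). A lincRNA on the opposite strand, Gm44036, overlaps exons of Anxa4, and as the strand setting of the counting is not known, its reads cannot be told apart.

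Anxa13, an annexin of the apical membrane of intestinal and kidney epithelium, did not move with Anxa4. It was at 96.5, 147 and 123 normalized read counts in control and at 117, 128 and 70.1 in Ptf1a cKO libraries. The groups overlapped, and Ptf1a cKO replicate 3 held the lowest value of all 6. The log2 fold change was -0.23 (95% confidence interval -0.76 to 0.29, adjusted p = 0.465, limma), and without Ptf1a cKO replicate 3 it was 0.025. Between the males Anxa13 was higher in Ptf1a cKO (0.40) and between the females lower (-0.55), a difference between the sexes that did not pass the threshold (adjusted p = 1.00, unadjusted p = 0.055, limma).

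Anxa1 is induced by glucocorticoids and acts through formyl peptide receptors to restrain leukocyte recruitment. Its values were 82.2, 91.7 and 62.8 normalized read counts in control and 121, 139 and 135 in Ptf1a cKO libraries. Every Ptf1a cKO library lay above every control, and the Ptf1a cKO values spread less (coefficient of variation 7.39%) than the control values (18.7%). On the log2 scale the rise was 0.73 with a standard error of 0.16 and an adjusted p of 0.00751 by limma. It was 0.74 between the males and 0.72 between the female groups. The receptor genes Fpr1, Fpr2 and Fpr3 were not analysed here.

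Anxa10 lacks much of the calcium binding of its relatives and is best known from gastric epithelium. It was at 0.019, 1.13 and 0.18 normalized read counts in controls 1, 2 and 3, all at or under a floor of 3, and at 6.34, 12.3 and 93.6 in Ptf1a cKO libraries 1, 2 and 3. The third Ptf1a cKO library held most of the signal of the group. Against the floor of 3 normalized read counts per library, the Ptf1a cKO mean of 37.4 ± 48.8 (SD, n = 3) was at least 12.5-fold higher. Each gene of the table reached 27.6 normalized read counts or more in at least 1 library, and Anxa10 did so in Ptf1a cKO replicate 3 alone. It could therefore enter the table only by being high in that library. The fitted log2 value of 2.68, with a standard error of 0.99 and an adjusted p of 0.0637 by limma, depends on the pseudocount, which equals 3.41 normalized read counts. With pseudocounts of 0.05 and 1 in place of 0.25 it was 4.31 and 1.44. The adjusted p was 0.0474 with Ptf1a cKO replicate 1 left out, 0.0498 with replicate 2 left out and 0.0345 when the mean-variance trend was dropped, and with replicate 3 left out the fitted value was 1.69 (adjusted p = 0.216, all limma). All of these fits but the last keep the library through which the gene entered the table, so none is support for a difference, and the values are given as a description. Ptf1a cKO replicate 3 was also the highest library for the leukocyte markers (summed level 2717 normalized read counts against 1225 to 1614 in the other two of its group). The summed level of the gastric markers was 485895, 190135 and 347136 normalized read counts in Ptf1a cKO libraries 1, 2 and 3, most of it Pga5 and Gkn3. Single gastric markers differed in their highest Ptf1a cKO library. Pgc and Muc6 were highest in replicate 3, Gkn3, Tff2, Pga5 and Gif in replicate 1, and Muc5ac in replicate 2. The part of either list in the Anxa10 values was not tested.

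Anxa2 holds plasminogen activators and S100a10 at the cell surface and bundles actin at membranes. It was at 151, 119 and 213 normalized read counts in control and at 200.5, 221 and 284 in Ptf1a cKO libraries. The groups overlapped because control replicate 3 lay above Ptf1a cKO replicate 1. The log2 fold change was 0.56 (95% confidence interval 0.087 to 1.04) with an adjusted p of 0.0668 (limma). The threshold was passed without control replicate 3 (0.78, adjusted p = 0.0178, limma) and with the replicate number as a block (adjusted p = 0.0172, limma). An antisense gene, Gm16144, overlaps exons of Anxa2.

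Anxa5, the annexin used as a probe of apoptotic cells, was at 492, 432 and 345 normalized read counts in control and at 552, 519 and 528 in Ptf1a cKO libraries. The groups did not overlap, but the gap between control replicate 1 and Ptf1a cKO replicate 2 was small beside the spread of the controls (SD 73.5). The log2 fold change was 0.35 (95% confidence interval 0.031 to 0.66, adjusted p = 0.0840, limma), and it did not pass the threshold with any single library left out.

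The remaining annexins are of broad expression. Anxa6, which has a duplicated core and ties cholesterol-rich membranes to actin, was at 856, 801 and 779 normalized read counts in control and at 869, 827 and 804 in Ptf1a cKO libraries. Its log2 fold change of 0.037 had the narrowest interval of the family, from -0.20 to 0.28 (adjusted p = 0.808, limma). Anxa7, which has a long N-terminal tail and takes part in granule fusion, was at 285, 427 and 358 in control and at 304, 324 and 348 in Ptf1a cKO (normalized read counts). All 3 Ptf1a cKO values lay within the control range, with a log2 fold change of -0.12 (interval -0.46 to 0.23, adjusted p = 0.583, limma). Anxa11, with a tail of the same kind that binds Pdcd6, was at 169, 148 and 96.7 in control and at 147, 170.1 and 139 in Ptf1a cKO (normalized read counts). The groups overlapped and the log2 fold change was 0.17 (interval -0.27 to 0.61, adjusted p = 0.532, limma). The antisense gene Anxa11os overlaps its exons, and Gm42603 those of Anxa3 on the same strand. Anxa3, known from neutrophil granules and vessels, was at 73.1, 68.9 and 97.4 in control and at 61.6, 57.9 and 89.5 in Ptf1a cKO (normalized read counts). Replicate 3 was the highest in each group, and the log2 fold change was -0.20 (interval -0.65 to 0.26, adjusted p = 0.478, limma).

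To compare levels between genes, the normalized read counts were divided by the merged exon length of each gene (GENCODE M21). Per kb of exon, Anxa6 was at 277 ± 13.5 and Anxa5 at 238 ± 41.4 in control (SD, n = 3 each), followed by Anxa13 at 90.6 ± 18.9 and Anxa4 at 72.9 ± 12.4. The ranges of Anxa6 and Anxa5 overlapped, as did those of Anxa13 and Anxa4 and of each further pair of neighbours down to Anxa3, whereas Anxa5 was apart from Anxa13 and Anxa3 from Anxa10. In Ptf1a cKO the order began with Anxa5 at 299.96 ± 9.71 and Anxa6 at 284 ± 11.3, which overlapped. Anxa4 came next at 189 ± 18.7 per kb, with every value above those of Anxa13 (78.0 ± 22.9) and below those of Anxa6. As a share of the summed annexin level per kb, Anxa4 was 8.40% ± 0.92 in control and 17.4% ± 1.40 in Ptf1a cKO (SD, n = 3 each), while Anxa6 was 32.1% ± 1.40 and 26.2% ± 1.03. The summed level per kb of the 10 annexins was 899, 894 and 798 in control and 1100.0, 1061 and 1096 in Ptf1a cKO libraries. The sums and shares include Anxa10, at 0.0082, 0.49 and 0.076 per kb in control and at 2.77, 5.35 and 40.8 in Ptf1a cKO. As Anxa10 could enter the table only through a high Ptf1a cKO value, they are given as a description.

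**Figure D3:**
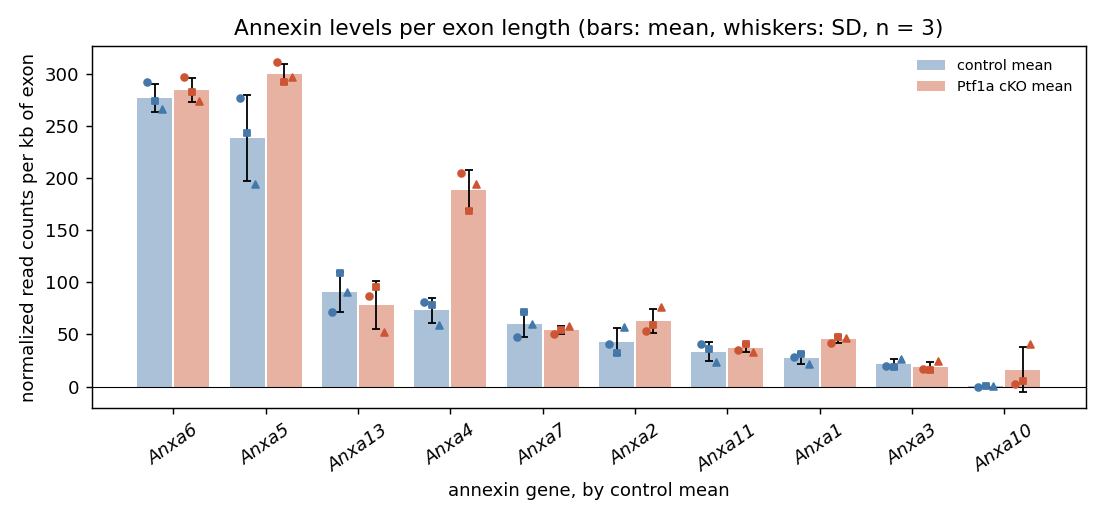
Normalized read counts per kb of merged exon for each annexin, with bars at the group mean, whiskers for SD (n = 3) and a point per library, control in blue and Ptf1a cKO in red. Anxa6 and Anxa5 are the tallest in both groups, and Anxa4 is at 72.9 in control and 189 in Ptf1a cKO.

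Genes that bind annexins or work beside them were read from the same fit. Of 27 such genes analysed, 8 were higher and 0 lower in Ptf1a cKO (limma, adjusted p under 0.05), which is 29.6% higher beside 17.1% of all genes. With the libraries scaled to the same total without digestive enzymes, other secreted acinar proteins and acinar markers, 6 were higher and 2 lower. Among the direct binding partners, 4 of 6 rose, S100a11 among them. The S100a11 controls were at 15.2, 15.3 and 26.7 normalized read counts. Each gene of the table reached 27.6 in at least 1 library, so S100a11 could enter only through high Ptf1a cKO values. Its call, also part of the 8 of 27, is no support for a difference. S100a10, which forms a complex with annexin A2, was at 63.7, 50.4 and 80.8 normalized read counts in control and at 118, 140.1 and 133 in Ptf1a cKO libraries. Its groups did not overlap and its log2 fold change was 0.99 (adjusted p = 0.00302, limma). S100a11, a partner of annexin A1, rose by 1.10 (adjusted p = 0.0208), S100a6 by 0.72 (adjusted p = 0.00572) and Ahnak, a scaffold that binds the S100a10 complex, by 0.69 (adjusted p = 0.00643), all on the log2 scale by limma. Pdcd6, a calcium sensor that binds annexins A7 and A11, differed by 0.27 (adjusted p = 0.0682) and Sri, or sorcin, by 0.23 (adjusted p = 0.235) on the same scale, and neither passed.

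**Figure D4:**
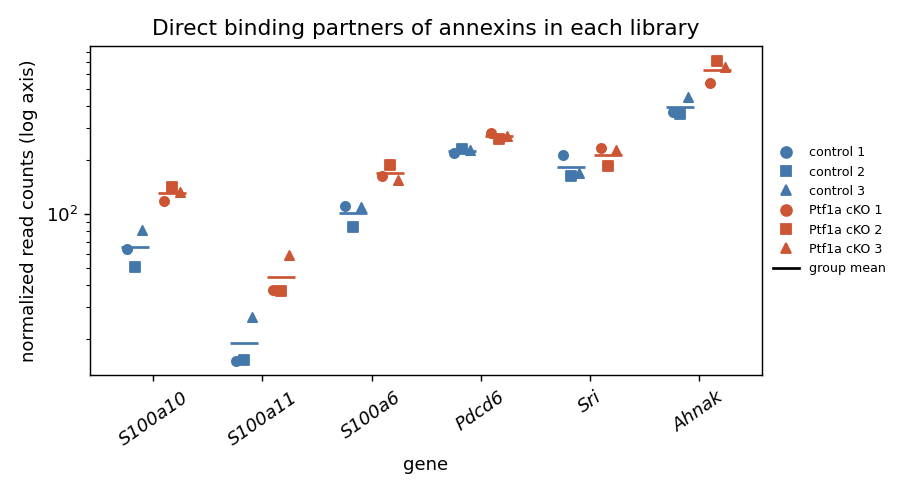
Normalized read counts (log axis) of 6 direct binding partners of annexins in the 3 control (blue) and 3 Ptf1a cKO (red) libraries, with bars at group means. The S100a10 values of Ptf1a cKO, 118 to 140.1, lie above the control values of 50.4 to 80.8, while the groups overlap for Sri.

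The other groups of partner genes are small, so their counts, set beside 17.1% of all genes higher, are not a contrast between groups. Of 10 genes of membrane repair, 3 rose, namely Myof, a ferlin that patches torn membranes (log2 fold change 1.00, adjusted p = 0.0141), and the calpain genes Capn1 (0.74, adjusted p = 0.00593) and Capns1 (0.44, adjusted p = 0.0157). Dysf, the ferlin of muscle, differed by -0.15 (adjusted p = 0.629), and Chmp4b, Chmp2a, Vps4a and Vps4b of the ESCRT machinery did not pass (all limma). Of 8 other genes for proteins that bind phospholipids with calcium, Syt7 alone rose, by 1.25 on the log2 scale (adjusted p = 0.00212, limma). None of the 3 plasminogen system genes analysed, Plat, Plau and Plgrkt, passed the threshold, with log2 fold changes of 0.44, 0.035 and 0.48.

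Because the libraries are of whole pancreas, fewer cells of a type and less RNA per cell cannot be told apart. Markers of several cell types moved with the groups (limma, adjusted p under 0.05). Over all genes, 17.1% were called higher and 16.8% lower by the same fit. Of 10 acinar markers 8 were lower, with a summed level of 10203600 to 12856300 normalized read counts in control and 1260380 to 3933320 in Ptf1a cKO libraries. Leukocyte markers were higher for 7 of 8, summing to 466 to 778 in control and 1225 to 2717 in Ptf1a cKO. Fibroblast and stellate markers were higher for 9 of 10 (3058 to 3475 against 5991 to 10563), ductal markers for 5 of 8 (2960 to 3670 against 24034 to 107767, most of it Spp1) and gastric epithelial markers for 5 of 7 (22449 to 26814 against 190135 to 485895). None of 6 endothelial and 7 endocrine markers passed, and no marker analysed was at 0 in a library. The mesothelial list had 1 of 3 genes higher (Lrrn4) and the adipocyte list 1 of 4 (Cfd). Their controls were at most 15.0 and 22.8, under the 27.6 normalized read counts that each gene reached in at least 1 library. Both could enter the table only through Ptf1a cKO, so these calls are no support for a difference. The same holds for Muc5ac, Car2, Slc4a4 and Cd52, which the gastric epithelial, ductal and leukocyte counts include. Annexins are expressed in several of these cell types, and the part of each in the rise of Anxa4 and Anxa1 was not tested.

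The direction of small changes rests on the scaling. With every library set to the same total, all 10 annexins were called higher, but so were 98.7% of all called genes (50.4% in the scaling of the authors), and the median gene moved by 1.48 on the log2 scale. Relative to that median gene, Anxa4 was higher by 1.38, Anxa1 by 0.69 and Anxa2 by 0.55, while Anxa13, Anxa3 and Anxa7 were lower by values of -0.26, -0.25 and -0.11. Another scaling used the same total without digestive enzymes, other secreted acinar proteins and the acinar markers. The median gene then moved by -0.15 and 29.2% of calls were higher. Anxa4 and Anxa1 were called higher in it too, at 1.19 and 0.55.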

How the data were processed

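The authors aligned single-end reads with TopHat2 2.0.4 and Bowtie 0.12.7.0 on mm9, used SAMtools 0.1.18.0, counted with HTSeq 0.6.0 (per the labels) and normalized with edgeR and TMM (per the methods). They deposited 1 table of signal values, normalized read counts per gene symbol, with decimals. Whole reads could not be recovered: at most 9.92% of low values fell within 0.02 of a multiple of a common step. The strand setting, annotation and any filter are not given in the sources used here. The 3 entries without a unique gene made up 75.7% to 82.6% of the summed normalized values of a library and were left out. This is not a share of its reads. A spreadsheet had turned 17 symbols into dates.

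Values were divided by 13.6393, and log2(value + 0.25) was fitted by limma 3.58.1 (R 4.3.3) with a mean-variance trend and a mean of at least 0.25, which removed no gene. Fold changes on this scale understate low genes. Single genes had exact permutation tests (SciPy 1.17.1). The labels name 6 separate mice. The fit was tested on simulated data. It recovered 65 of 100 changes of 1 on the log2 scale and 92 of 100 changes of 2, with 7 false calls. A gene that did not pass is therefore not shown to be unchanged. Named were all 10 annexins, direct binding partners, partner genes called at 2-fold or more, and the 3 genes nearest in pattern to the 2 most changed annexins. Capn1, Capns1 and other partners below 2-fold were named after their values were seen. Members, lists and settings were chosen with earlier results of these data known. Promoter windows came from RefSeq (GRCm38.p6) and exon lengths from GENCODE M21, and neither was joined to mm9 coordinates.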

Additional observations from a re-analysis of the deposited data

How the results depend on the processing

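Anxa4 and Anxa1 were called higher under all 19 alternatives to the analysis as described, namely other pseudocounts, filters, scalings and variance models, sex or the replicate number in the model, females alone, and each library left out. The fit with no filter on low values repeats the analysis as described, since that filter removed no gene. Scaling to the same total called 9587 of 10245 genes higher, so neither of these settings adds support. With single libraries left out the log2 fold change ran from 1.23 to 1.46 for Anxa4 and from 0.58 to 0.84 for Anxa1. With every library at the same total, 10 annexins, 27 partner genes and 9716 of all genes were called, in place of 2, 8 and 3475, and Anxa3 (1.23), Anxa7 (1.37) and Anxa13 (1.22) turned higher with the median gene. With the same total without digestive enzymes and the other acinar genes, Anxa6 (-0.15) and Anxa11 (-0.015) turned lower without passing the threshold. Leaving out single libraries moved Anxa7 from -0.27 to 0.021, Anxa11 from -0.060 to 0.33 and Anxa13 from -0.40 to 0.025, and none of the 3 was called. The cause was not tested.

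Replicate numbers are shared between the groups but come from different mice, so they were not taken as pairs. Same-numbered libraries deviated together with correlations of 0.039, 0.13 and 0.14. Libraries of unlike number had correlations of 0.083, 0.030, -0.057, -0.068, -0.097 and -0.20. Whether a number stands for a shared effect was not tested. With the replicate block 3 annexins were called, Anxa2 in addition. Anxa10 could not be fitted with a filter at a mean of at least 5.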

Other observations

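Over the 6 libraries, Anxa1 and Anxa4 had the highest Pearson correlation of log2 values among pairs of annexins (0.94), followed by Anxa4 with Anxa5 (0.88) and Anxa1 with Anxa5 (0.87), and Anxa3 with Anxa11 had the lowest (-0.78). These are descriptions, since the libraries share the difference between the groups. The genes nearest to Anxa4 in pattern were Kit, 1500011B03Rik and Atp8a2 (0.999, 0.998 and 0.998), and 486 genes had a correlation with it above 0.95. Those nearest to Anxa10 were Plcg2 (0.998), N4bp2 (0.991) and Mkl1 (0.991), with 106 genes above 0.95.

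Control replicate 3 held the lowest value of 5 annexins, Anxa1, Anxa4, Anxa5, Anxa6 and Anxa11, and the highest of Anxa3. It also had the highest summed level of endocrine markers, 42640 normalized read counts against 12014 and 11369 in control replicates 1 and 2. In Ptf1a cKO libraries 1, 2 and 3 this sum was 27180, 5817 and 33247. A link between these sums and the annexin values was not tested.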
